A study of Mus musculus with 24 samples.

Results

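The measurements are of the uterus of wild-type mice after 4 injections of progesterone (P4), compared with uteri injected 4 times with vehicle. The comparison was taken from the array labels alone: the 3 arrays labelled P4, wild type and 40 h against the 3 labelled vehicle, wild type and 40 h, 6 of the 24 arrays in the series, and all 12422 probe sets that are not controls. All mice were ovariectomized at 6 weeks of age, which removes the ovarian source of estrogen and progesterone, and were injected from 2 weeks later with sesame oil or with 1 mg P4 per mouse in sesame oil, every 12 h. Uteri were taken 4 h after the fourth injection, 40 h after the first. A pair of other sets of arrays is used beside these: mice lacking the progesterone receptor (PRKO) with the same 4 injections of P4 or vehicle (3 arrays each), and wild-type mice 4 h after 1 injection of P4 or vehicle (3 arrays each). Per the labels, RNA from 5 mice was pooled per genotype and treatment, and it is not stated if replicate arrays came from different pools. P values therefore measure the spread between arrays, which may be technical, and not the spread between mice.

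Progesterone acts in the uterus mainly through its receptor, a transcription factor of the nuclear receptor family that is present in epithelium, stroma and muscle. It halts the growth that estrogen drives in the epithelium, makes the stroma able to decidualize, keeps the muscle quiet and prepares secretions that an embryo meets at implantation. Much of its action on the epithelium passes through the stroma, by way of signals such as Indian hedgehog. In mice without ovaries the injections act on tissue with no ovarian estrogen. Whole uterus mixes these layers with vessels, leukocytes and attached fat, so fewer cells of a type and less RNA per cell cannot be told apart in any value below.

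Each probe set gives a signal in arbitrary units, scaled so that the 2%-trimmed mean of an array is 500. Signals are listed for replicates 1, 2 and 3 in that order. A change is the mean log2 of (signal + 32) of 3 arrays after P4 minus that of 3 after vehicle. Its standard error (SE) is from limma, a linear model that shares information on variance across probe sets. The variance of a probe set was estimated over all 24 arrays in 8 groups. The SE is therefore not the spread of the 6 arrays listed beside it. "Rose" and "fell" are used of genes whose limma p value was under 0.05 after Benjamini-Hochberg adjustment across the 12422 probe sets. The median signal of the 24 arrays lay between 323.2 and 342.6, precision is limited by having 3 arrays a group, and the median SE of a change was 0.102. Arrays of a 40 h wild-type group correlated at 0.986 to 0.994 in log2 signal and no pair was a duplicate. None of the measured markers of uterine epithelium (22), stroma (21) or smooth muscle (17) was under 50 on all 6 arrays. The same held for 20 skeletal muscle markers and 12 markers of mesothelium, ovary or oviduct, so this cannot check the tissue label. The receptor gene Pgr gave low signals of 155, 128 and 157 after vehicle and 156, 169 and 144 after P4, which overlapped (0.08 ± 0.08, limma adjusted p = 0.798).

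Of 12422 probe sets 191 (1.54%) changed, 89 higher (0.716%) and 102 lower (0.821%) after P4. They named 161 single genes, 75 that rose and 86 that fell, and 22 of the probe sets name several genes or none. The changes were mostly under 2-fold: 16 probe sets rose and 18 fell by more than 1 on the log2 scale, and the medians were 0.65 for those that rose and −0.609 for those that fell. In 190 of the 191 all 3 P4 arrays lay to 1 side of all 3 vehicle arrays. Among all probe sets, 9.76% had every P4 array above and 10% every P4 array below the vehicle arrays. The balance of directions was not stable: it was 59 higher and 40 lower without vehicle replicate 3, 61 and 49 without P4 replicate 1, and 49 and 41 without P4 replicate 2. For 49 of the 161 genes the array carries more than 1 probe set, and another probe set was also called for 8, none of them in the opposite direction.

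The largest rises included a secreted protease inhibitor and a calcium-binding protein. Spink1, which encodes a secreted trypsin inhibitor, gave 88.3, 101 and 82.6 after vehicle and 585, 443 and 238 after P4. The groups were far apart, although P4 replicate 3 reached less than the other P4 arrays (1.81 ± 0.17, limma adjusted p = 5.93e-06). S100g, which encodes the cytosolic calcium-binding protein calbindin-D9k, gave 788, 873 and 573 after vehicle and 2634, 2261 and 2073 after P4. These groups were also wholly apart (1.61 ± 0.17, adjusted p = 8.05e-06), and a dimmer probe set of S100g rose by 1.44 from 115, 184 and 145 to 455, 423 and 469. Calb1, which encodes the related calbindin-D28k, gave 1867, 1499.5 and 1189.9 and 2678, 2099.6 and 2387 and did not pass (0.66 ± 0.29, adjusted p = 0.368). S100a10, a partner of annexin at the cell membrane, rose by 0.71 ± 0.10, but its second probe set gave 0.00. Of 22 measured genes for calcium binding and transport 3 rose (S100g, S100a10 and the matrix protein gene Sparc) and none fell, with a median of 0.0959, against a median of −0.00025 and 1.77% called (0.788% higher, 0.982% lower) over all 8251 genes at their brightest probe set. Of those 8251 genes 49.9% were positive, 10% had all P4 arrays above and 10.6% all below, the shares to set beside the list counts below.

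Secretory products of the epithelium did not move as a block. Of 24 measured members, Spink1 and S100g rose and Clca1 fell, and the median was −0.0461. Clca1, which encodes a secreted regulator of chloride channels and mucus, had the largest fall of all: 674, 1324 and 1526 after vehicle and 91.1, 83.2 and 151 after P4. No array of the 2 groups overlapped (−3.05 ± 0.47, adjusted p = 0.000919), but vehicle replicate 1 was far below the other vehicle arrays, the probe set is of a less specific design, and the other Clca1 probe set gave 118, 133 and 129.8 and 138, 119 and 127, a change of 0.01. Amy1, an amylase gene with close relatives that the probes may not separate, fell from 242, 169 and 177 to 74.9, 73.1 and 84.8 (−1.04 ± 0.16), with no overlap. Wfdc2, a whey acidic protein family gene of the epithelium, gave 2883, 2750.1 and 2738 and 1708, 1462 and 1716, apart in all arrays but just short of the threshold (−0.77 ± 0.20, adjusted p = 0.0559).

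Several metabolic enzymes, given here singly and not as a tested group, also rose. Acot7, second only to Spink1 among the rises, which encodes an enzyme that splits acyl-CoA, gave 800.4, 549.6 and 476 after vehicle and 2132, 1793 and 2032 after P4. The lowest P4 array was more than 2 times the highest vehicle array (1.68 ± 0.17, adjusted p = 8.05e-06). Npl, whose enzyme breaks down free sialic acid, rose from 408, 205 and 138 to 727, 709 and 843, with a wide vehicle group (1.60 ± 0.25, adjusted p = 0.00102). Acod1, whose enzyme makes itaconate from an intermediate of the citric acid cycle, rose from 381, 317 and 284 to 1050.4, 960.3 and 811. Its groups did not overlap (1.44 ± 0.15, adjusted p = 8.05e-06), and its other, very dim probe set rose by 0.50. Asl, of arginine synthesis and the urea cycle, gave 237, 236 and 223 and 453, 389.8 and 418 (0.77 ± 0.10), while its other probe set gave −0.20. Gstm2, a glutathione transferase gene of a family with near-identical members, rose by 1.48 ± 0.34 at 1 probe set and gave 0.03 at the other. Slc2a3, the glucose transporter GLUT3, rose at both of its probe sets, from 663, 469.5 and 426 to 829, 878 and 881 at the brighter (0.72 ± 0.12) and by 0.50 at the dimmer.

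Among prostaglandin genes a receptor rose. Ptger3, the receptor EP3 for prostaglandin E2, rose from 89.4, 48.6 and 86 to 171, 244 and 296. All signals were low, and the groups were apart with P4 replicate 1 nearest to the vehicle arrays (1.33 ± 0.21, adjusted p = 0.00102). A second Ptger3 probe set, at signals near the floor of the array, gave 0.10. Ptger3 was the 1 of 19 measured prostaglandin genes that rose, none fell, and the list median was 0.0346. Ptgr1, which encodes a reductase that inactivates prostaglandins and leukotrienes and stood outside that list, rose from 293, 304 and 306 to 677, 539.5 and 532 (0.88 ± 0.12, adjusted p = 0.00026). Alox12e, an epidermal lipoxygenase gene, rose at both of its probe sets, by 0.73 and 0.44.

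**Figure D1:**
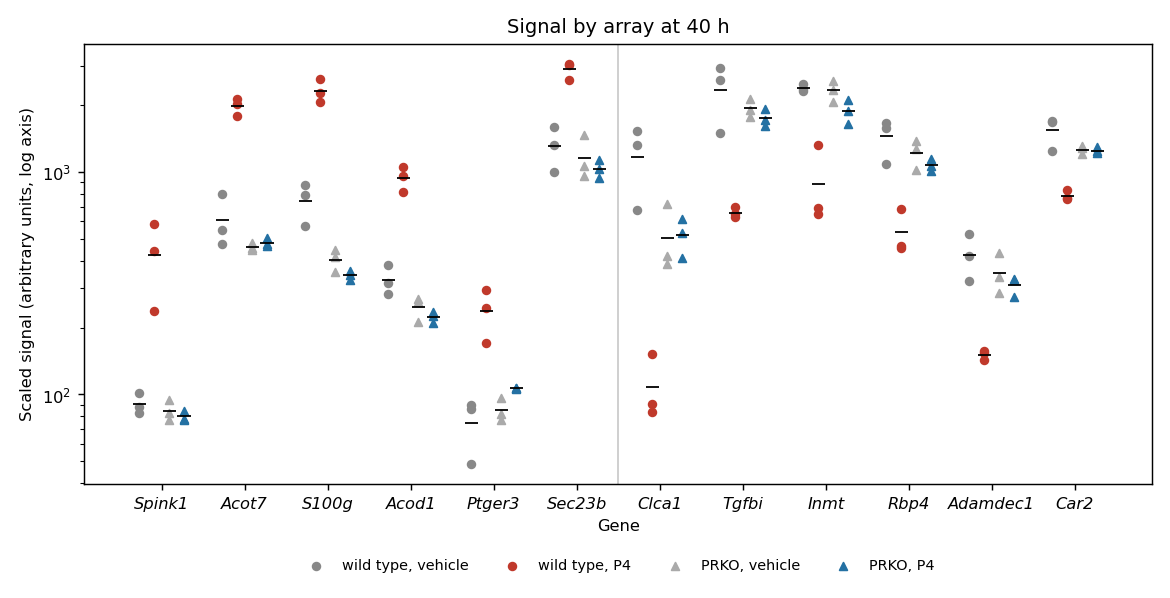
Scaled signal (log axis) of 12 genes on the 12 arrays of 40 h, 3 points per group with a bar at the group mean. The 6 genes on the left rose and the 6 on the right fell in wild-type uteri, where the red points lie apart from the dark grey ones, while the 2 PRKO groups lie close together or overlap for most of them. Separate wild-type groups were a condition for naming these genes.

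Among matrix genes 7 of 39 rose and 1 fell, and among genes that fold and export collagen 3 of 14 rose, with Sparc on both lists. Col3a1, the fibrillar type III collagen chain, gave 2077, 2429.9 and 3118 after vehicle and 4264, 4649 and 5343 after P4, with no overlap (0.91 ± 0.16, adjusted p = 0.00384). Its other probe sets gave 0.81 and 0.90 and did not pass. Both chains of type I collagen rose as well: Col1a1 from 2812, 3208 and 3958 to 4672, 5721 and 6848 (0.78 ± 0.14) and Col1a2 from 2813, 2852 and 3396 to 4462, 5505 and 5774 (0.79 ± 0.14). Second probe sets gave 0.36 for Col1a1 and 0.06 for Col1a2. The type V chain Col5a2 rose from 981, 970.3 and 1018 to 1603, 1563 and 1589, groups that were each very tight (0.66 ± 0.10). Col6a2 (0.77 ± 0.19), the proteoglycan gene Vcan (0.65 ± 0.15) and Sparc (0.57 ± 0.13) were the other rises of the matrix list, whose median was 0.213. Dpt, which encodes a matrix protein that binds collagen and decorin and is not on that list, rose from 740.4, 900.5 and 1036 to 1624, 1736 and 1367 (0.80 ± 0.17).

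The 1 matrix gene that fell was Tgfbi, whose secreted protein links collagens to integrins. It gave 1501, 2936 and 2602 after vehicle and 627, 647 and 699 after P4, where the 3 P4 arrays were close to each other and far below even the lowest vehicle array (−1.73 ± 0.23, adjusted p = 0.00018). Its second probe set, near the floor, gave −0.06. The 3 rises among genes for collagen folding, crosslinking and export were Sec23b, a coat protein of the vesicles that leave the endoplasmic reticulum, the collagen chaperone gene Serpinh1 (0.77 ± 0.13), and Sparc. Sec23b gave 1600.2, 1004 and 1327 after vehicle and 3024, 2605 and 3063 after P4 (1.15 ± 0.18, adjusted p = 0.00102), and 0.02 at its other probe set. Rcn1, a calcium-binding protein of the endoplasmic reticulum (0.87 ± 0.11), and Kdelr3, a receptor that returns proteins to it (0.83 ± 0.18), rose too. The 26 measured chaperones of that compartment held no call and had a median of 0.0161. Of 34 matrix proteases and inhibitors none rose, and Adamdec1 and Mmp11 (−0.46 ± 0.11) fell. Adamdec1, which encodes a secreted metalloprotease, gave 324, 419 and 528 and 154, 142 and 157, so that the 3 P4 arrays were close to each other and below every vehicle array (−1.29 ± 0.21).

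Stromal regulators and growth factors showed single changes. The homeobox gene Hoxa11, which patterns the uterus and is needed for implantation, rose from 1330.5, 1371 and 1591 to 2226, 2230.4 and 2352 (0.66 ± 0.14, adjusted p = 0.0182). Its antisense transcript Hoxa11os, chosen after its values were seen, rose at both probe sets, by 0.71 ± 0.13 and 0.64 ± 0.13, and which of the 2 transcripts each probe reads is not settled here. Hoxa10 gave 1663, 1476 and 1411 and 2459, 2315 and 2019.8, apart in all arrays and not called (0.57 ± 0.19, adjusted p = 0.18). Mme, the peptide-degrading membrane enzyme neprilysin of stromal cells, rose from 273, 212 and 157 to 679.7, 411 and 370.5 (1.06 ± 0.23). Igf1, the growth factor IGF-1, rose from 321, 346 and 492 to 987, 818 and 786 at 1 probe set (1.11 ± 0.20), while a second of about the same brightness gave 752, 792 and 788 and 757, 843 and 845 (0.07). Mdk, the heparin-binding growth factor midkine, which is not on the growth factor list, rose from 959, 956 and 1221 to 2304, 1949 and 1766 (0.92 ± 0.22). Of 54 measured genes on that list, at their brightest probe sets, none rose (Igf1 did at its other) and 2 fell, the epithelial receptor Fgfr2 (−0.53 ± 0.08) and the inhibin subunit Inhbb, with a median of −0.0257.

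Known progesterone targets responded in part. Of 27 measured, Spink1, Acod1, Lrp2 and Hoxa11 rose, none fell, and the median was 0.161, or 0.097 with each gene's probe sets averaged. Lrp2 encodes megalin, an endocytic receptor for vitamin and lipid carriers, and gave 655, 383 and 339 after vehicle and 1054, 869 and 1052 after P4, with no overlap (1.11 ± 0.20, adjusted p = 0.00407). Fst, which encodes the activin-binding protein follistatin, gave 121, 116 and 100.0 and 246, 203 and 165 (0.70 ± 0.20, adjusted p = 0.101). Il13ra2, a decoy receptor for interleukin-13, gave 53.4, 47.2 and 57.4 and 75.1, 82.8 and 102 (0.48 ± 0.17, adjusted p = 0.197). In both of these every P4 array was above every vehicle array without the change passing the threshold. In the hedgehog pathway, 4 of 11 measured genes had all P4 arrays above all vehicle arrays and none was called, with a median of 0.133. Its ligand Ihh gave 916, 996 and 839 and 1103, 1190.1 and 1028 (0.26 ± 0.11), its receptor Ptch1 gave 1942, 1802 and 1943 and 3542, 2857 and 2333 (0.59 ± 0.22), and the transcription factor Gli1 overlapped between groups (0.35 ± 0.12). Steroid receptors and their partners held no call among 16, at a median of 0.00095, and the estrogen receptor gene Esr1 gave 0.03 ± 0.15.

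Genes known to be raised by estrogen held 4 falls. Of 21 measured, at their brightest probe sets, none rose and 4 fell, 9 had all P4 arrays below all vehicle arrays and none had all above, and the median was −0.109. Besides Clca1 these were Car2, Inhbb and Gjb2, while Igf1, also on this list, rose at the probe set that is not its brightest. Car2, which encodes a carbonic anhydrase of the epithelium, gave 1240.2, 1672 and 1703 after vehicle and 754, 768 and 829.5 after P4, far apart (−0.93 ± 0.14, adjusted p = 0.000965). Inhbb, the beta-B subunit of activins and inhibins, gave 246, 225 and 226 and 147, 107 and 87.5, again apart (−0.88 ± 0.16). Gjb2, the gap junction protein connexin 26, gave 325, 415 and 555 and 224, 212 and 222, where the P4 arrays differed little from each other and the vehicle arrays varied widely (−0.85 ± 0.17). Ltf, the secreted iron-binding protein lactoferrin, gave 536, 699.6 and 903 and 309, 281 and 313, which did not overlap and did not pass (−1.13 ± 0.34, adjusted p = 0.105).

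Junction and keratin genes of the epithelium lay low as a list. Of 27 measured none rose and 3 fell, 16 had all P4 arrays below and none all above, the median was −0.26, and averaging each gene's probe sets gave −0.157. Tspan8, a membrane organiser of epithelial cells, gave 311, 423 and 526 after vehicle and 187, 194 and 223 after P4 (−0.93 ± 0.17). Krt7, a keratin of simple epithelia, gave 306, 388 and 409 and 226, 201 and 239 (−0.65 ± 0.12). Both had separate groups, as did Gjb2. Genes that every epithelial cell of the uterus carries were mixed: Krt8 gave 0.03 ± 0.14 and the adhesion gene Cdh1 0.02 ± 0.10, both overlapping, while Krt18 (−0.32 ± 0.11) and Krt19 (−0.35 ± 0.17) had all P4 arrays below the vehicle arrays without a call. The mean log2 signal of 22 epithelium markers was 9.35 to 9.41 on the P4 arrays and 9.47 to 9.54 on the vehicle arrays. For the 21 stroma markers the mean was 10.33 to 10.40 on the P4 arrays and 10.01 to 10.13 on the vehicle arrays. Of these markers 15 were positive, 8 had all P4 arrays above and 2 all below. That list holds Col1a1, Col1a2, Col3a1, Hoxa11, Mme and Igf1, named above as rises, so its level is not separate from them. The part of these levels in the falls of epithelial genes or the rises of matrix genes was not tested. The summed signal of the stroma markers was 43490 to 47250 after P4 and 32760 to 38800 after vehicle, and that of the epithelium markers 18030 to 20070 and 19660 to 21270, and no marker of either list was under 50 on all 6 arrays.

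**Figure D2:**
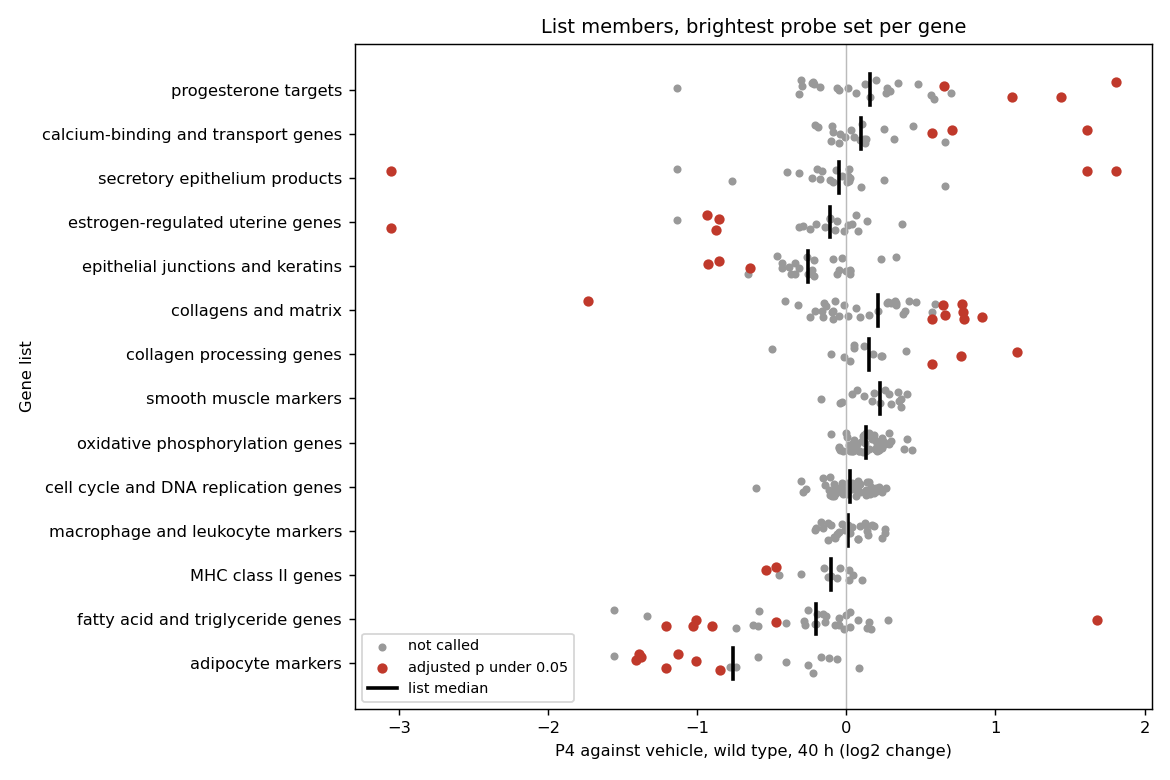
Log2 change after P4 in wild-type uteri at 40 h for the members of 14 gene lists, 1 point per gene at its brightest probe set, red where the adjusted p was under 0.05, with a bar at the list median. Adipocyte markers lie furthest to the left at a median of −0.761, epithelial junction genes at −0.26, and collagens and matrix at 0.213 and smooth muscle at 0.226.

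Fat-associated genes formed the largest set of falls. Of 18 measured adipocyte markers none rose and 7 fell, 15 had all P4 arrays below all vehicle arrays, and the median was −0.761. The adipocyte hormone gene Adipoq gave 2019, 2027 and 2706 after vehicle and 505, 782 and 1366 after P4 (−1.41 ± 0.25, adjusted p = 0.00384). Cidec, of the lipid droplet, gave 557, 341 and 499.8 and 100.4, 172 and 207 (−1.39 ± 0.31). Lpl, the lipase that frees fatty acids from lipoproteins, gave 1550.1, 1960.3 and 2274 and 336, 525 and 1106 (−1.65 ± 0.39) and fell by 1.21 at its other probe set. In all of these the groups were apart, and P4 replicate 1 was lowest and P4 replicate 3 highest. Car3 (−1.13 ± 0.18), the retinol carrier gene Rbp4 (−1.38 ± 0.21), the hormone-sensitive lipase gene Lipe (−1.01 ± 0.24) and the resistin gene Retn (−0.84 ± 0.19) were the others. Pck1 gave 586, 376 and 665 and 80.9, 159 and 288, the largest change of the list at brightest probe sets, and did not pass (−1.56 ± 0.50, adjusted p = 0.152).

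Genes that make and store fatty acids also held falls. Of 34 measured 5 fell and Acot7 rose, and the median was −0.201. Scd1, which desaturates fatty acids, gave 5921, 5553 and 6584 and 1902, 1844 and 3162 at 1 probe set (−1.42 ± 0.18), −1.03 at its brightest and 0.02 at a dim one. The fatty acid synthase gene Fasn gave 3583, 3353 and 4287 and 1701, 1616 and 2829.6 (−0.90 ± 0.20), with P4 replicate 3 again nearest to the vehicle arrays. Lpin1, of triglyceride synthesis, gave −0.81 ± 0.17, and Gpam, an acyltransferase gene of the same route, gave −0.47 ± 0.12. The 18 measured genes of cholesterol synthesis and uptake held no call, at a median of 0.0188.

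The level of the adipocyte markers itself separated the arrays. Their mean log2 signal was 9.66, 9.41 and 9.66 after vehicle and 8.62, 8.81 and 9.11 after P4. It was 9.58, 9.53 and 9.67 in PRKO uteri after vehicle and 9.37, 9.35 and 9.50 after P4, which did not overlap either. With this level as a covariate in the fit, 1 probe set was called, Ptger3 (1.99, adjusted p = 0.0249), and Lpl, Cidec, Lipe and Fasn changed sign. Cidec, Lipe and, below, Rbp4 are averaged in this level at these same probe sets, so their shrinkage under it was largely fixed in advance. Lpl enters the level through its other, brighter probe set, which kept its sign under the covariate (−0.20). Of the 191, 184 kept their sign and the median share of the change kept was 84.6%, while the median SE over all probe sets rose from 0.102 to 0.169. The level is lower on every P4 array, so the level and the treatment move together across the 6 wild-type arrays. Under it Acot7 gave 1.62, S100g 1.34, Tgfbi −1.81 and Adamdec1 −1.43, while Spink1 gave 1.18, Clca1 −1.89, Rbp4 −0.34 and Cyp2e1 −0.22. Their summed signal was 11040 to 16730 after P4 and 21780 to 25080 after vehicle, and none of the 18 was under 50 on all 6 arrays. How much fat was taken with each uterus is not given in the labels, and its part in these results was not tested beyond this fit.

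**Figure D3:**
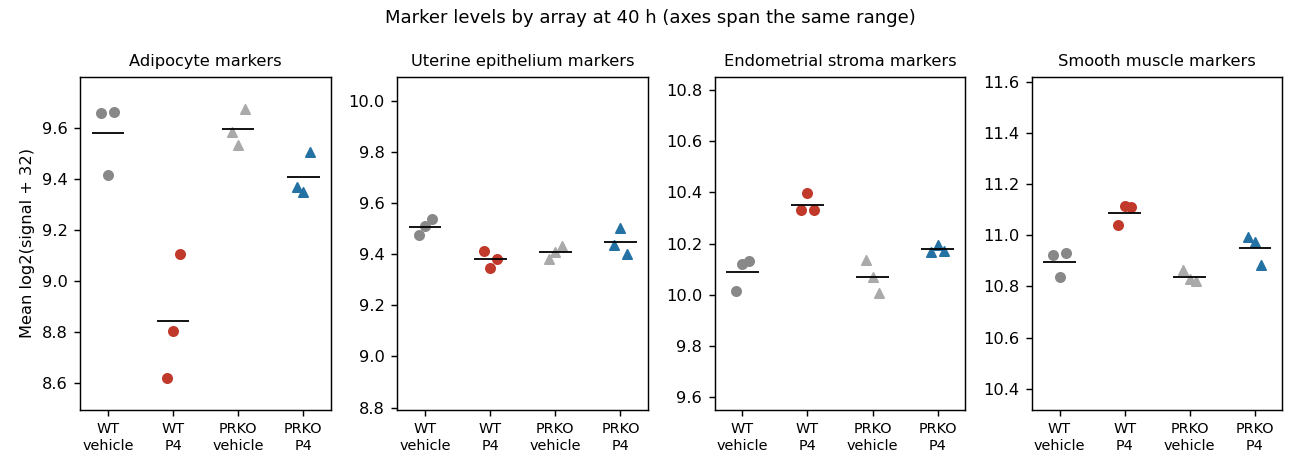
Mean log2(signal + 32) of 4 cell type marker lists on each of the 12 arrays of 40 h, 3 points per group with a bar at the mean, on axes that span the same range. Adipocyte markers run from 8.62 to 9.11 after P4 and from 9.41 to 9.66 after vehicle in wild-type uteri, and the smooth muscle and stroma markers lie higher after P4.

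Enzymes that clear foreign compounds and aldehydes contributed 4 falls and 1 rise among 48 measured, with a median of −0.0718. Inmt, a methyltransferase for amines, gave 2357, 2307 and 2489 after vehicle and 693, 647 and 1322 after P4, so P4 replicate 3 had about 2 times the signal of the other P4 arrays but stayed below every vehicle array (−1.47 ± 0.20, adjusted p = 0.000189). The cytochrome gene Cyp2e1 gave 5334, 3437 and 4573 and 1528, 2126 and 2339 (−1.14 ± 0.23). Aldh1a1, which makes retinoic acid from retinaldehyde, gave 905, 982 and 1188 and 539, 651 and 568 (−0.77 ± 0.12), and its other probe set, near the floor, gave −0.02. The epoxide hydrolase gene Ephx1 was the other that fell (−0.47 ± 0.11). Of 22 retinoid genes Rbp4 and Aldh1a1 fell, and Lrp2 and Crabp1, which encodes a retinoic acid-binding protein, rose (0.73 ± 0.16, from 81.4, 82.6 and 128 to 176, 166 and 196).

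Inflammatory, vascular and clotting genes gave few calls. In antigen presentation by class II molecules 2 of 13 genes fell, the invariant chain gene Cd74 (−0.54 ± 0.13) and H2-Eb1 (−0.47 ± 0.10), with a median of −0.102. Class I and interferon-response genes (32), complement and chemokine genes (49) and markers of macrophages and other leukocytes (29) held no call, at medians of −0.012, −0.0444 and 0.0113. Pla2g7, which encodes the enzyme that inactivates platelet-activating factor, fell from 86.8, 156 and 216 to 39.7, 54.5 and 54 (−1.13 ± 0.21), all of them low signals. F3, the clotting initiator tissue factor, fell from 665, 916 and 1112 to 549, 429.7 and 453 (−0.85 ± 0.16). Cldn5, a tight junction gene of endothelium, gave 1457, 1027 and 1197 and 700.5, 676 and 684 and was the 1 of 21 endothelial markers that was called (−0.79 ± 0.18). Cebpb, a transcription factor gene of decidualization and of fat cells, fell from 836, 719.5 and 732 to 369, 413 and 398 (−0.90 ± 0.21). The sphingomyelinase-like gene Smpdl3a fell too (−0.84 ± 0.20).

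Muscle, energy and growth lists had few calls. Smooth muscle markers held no call among 17, but 14 were positive, 7 had all P4 arrays above and none all below, and the median was 0.226. Over all 8251 genes at their brightest probe set 49.9% were positive, 10% had all P4 arrays above and 10.6% all below. The contractile gene Myh11 gave 4201, 4042 and 4200.0 and 5056, 5697 and 5196 (0.35 ± 0.09, adjusted p = 0.0589). Of 20 skeletal muscle markers the actin gene Acta1, which smooth muscle can also carry, rose from 1028, 544 and 839 to 2373, 2277 and 2245 (1.52 ± 0.38, adjusted p = 0.0435), and the median was 0.0633. Of 51 oxidative phosphorylation genes 45 were positive, 13 had all P4 arrays above and none all below, none was called at its brightest probe set and the median was 0.134. Cyc1, a cytochrome of the respiratory chain, rose at a dimmer, less specific probe set (0.43 ± 0.10) and gave 0.10 at its brightest. The respiratory-chain subunit genes Ndufb6 (0.49 ± 0.10) and Ndufa3 (0.41 ± 0.10), which are not on the list and were named after their values were seen, rose too. The median of the 51 oxidative phosphorylation genes in PRKO uteri was 0.108, on arrays that are not shared, against −0.0334 over all 8251 genes. None of 51 genes of cell cycle and DNA replication was called, at a median of 0.0247, by limma over all probe sets. Of 30 ribosomal protein genes 1 rose, Rpl13a (0.56 ± 0.08), a gene with many processed copies in the genome. Nde1, a gene of the dynein motor and the centrosome (1.01 ± 0.17) and the uncharacterised transcript D430019H16Rik (0.97 ± 0.11) also rose.

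The same 4 injections were given to PRKO mice, which asks how much of the response was seen without the receptor. In PRKO uteri at 40 h limma called 0 of 12422 probe sets (0%), and 831 had an unadjusted p under 0.05, against 1455 in wild-type uteri. When each comparison was fitted on its own 6 arrays this order turned, with 2006 in PRKO and 1712 in wild-type uteri, and the PRKO count of calls was 1. All P4 arrays lay above all vehicle arrays for 5.89% and below for 16.4% of probe sets in PRKO uteri, against 9.76% and 10% in wild type. The count of 0 does therefore not show that PRKO uteri did not respond. Spink1 gave 82.9, 76.6 and 94.5 after vehicle and 78, 77.2 and 84.4 after P4 in PRKO uteri (−0.06 ± 0.17). Acot7 gave 479, 454 and 448 and 505, 475 and 463 (0.06 ± 0.17). S100g gave 354, 444 and 415 and 328, 344 and 361 (−0.21 ± 0.17). In these 3 genes the PRKO groups overlapped. Their wild-type groups were apart, which was a condition for naming them and was not asked of the PRKO groups. Clca1 gave 387, 418 and 719 and 412, 614 and 533 (0.07 ± 0.47), with overlap.

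A test of the difference between the genotypes' P4 effects called 13 probe sets (0.105%), 10 higher (0.0805%) and 3 lower (0.0242%) in wild type, and all 13 were among the 191. The genes were Spink1 (1.87 ± 0.25), S100g (1.82 ± 0.23 and 1.47), Acot7 (1.62 ± 0.24), Acod1 (1.56 ± 0.21), Sec23b (1.29 ± 0.25), Alox12e (0.87 ± 0.14) and the protein repair methyltransferase gene Pcmt1 (0.47 ± 0.09). On the lower side were the dipeptidase gene Cndp2 (−0.86 ± 0.16), the Rac activator gene Tiam1 (−0.62 ± 0.12) and the potassium channel gene Kcnq1 (−0.61 ± 0.12). Cndp2 gave 904, 1108 and 985 after vehicle and 588, 610.3 and 583 after P4 in wild-type uteri, with no overlap, and 778, 923 and 811 and 1002, 977 and 815 in PRKO uteri. Kcnq1 gave 209, 222 and 202 and 118, 129.6 and 134 in wild-type uteri, tight groups far apart, and Tiam1 gave 135, 166 and 160.2 and 101, 97.8 and 99.5. Brighter probe sets of Kcnq1 and Tiam1 gave −0.19 and −0.17 in wild-type uteri. The differences of Spink1, S100g, Acot7 and Acod1 passed with any 1 of the 12 arrays left out, at adjusted p of up to 0.00505, 0.00505, 0.0152 and 0.00505. Alox12e did not pass without 1 of them (adjusted p = 0.0516), and Sec23b, Pcmt1, Cndp2, Tiam1 and Kcnq1 did not pass without most of them, at adjusted p of up to 0.146, 0.194, 0.161, 0.155 and 0.166. The count was 32 without wild-type vehicle replicate 1, 5 without wild-type vehicle replicate 3, 11 and 9 without wild-type P4 replicate 3 and PRKO P4 replicate 3, and 6 to 8 without any of the other 8 arrays.

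**Figure D4:**
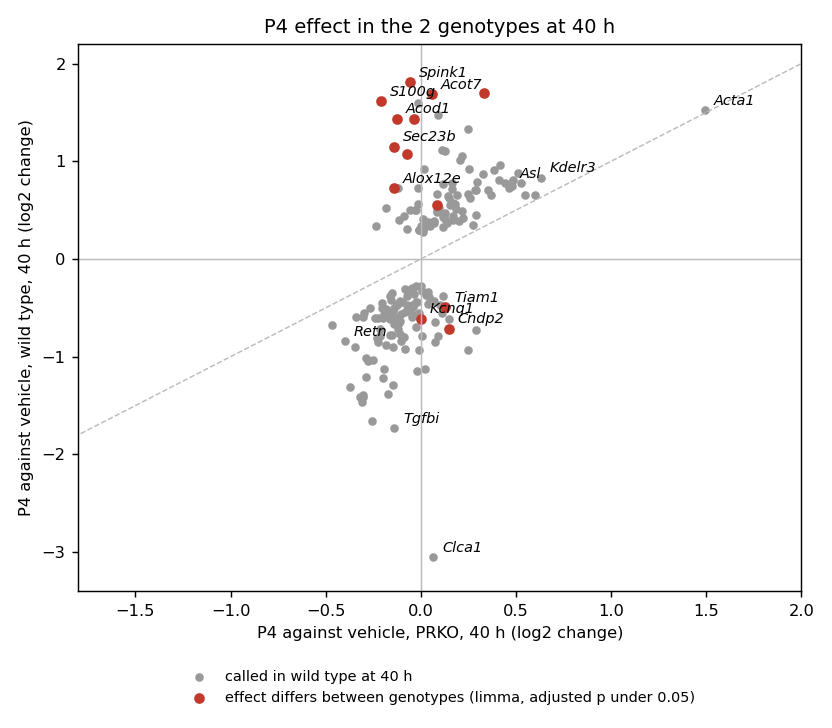
Log2 change after P4 at 40 h in PRKO uteri (horizontal) and wild-type uteri (vertical) for the 191 probe sets called in wild type, each point from 3 arrays against 3 in each genotype, red where the difference passed and with a dashed line of equal change. Acta1 lies near the line at 1.49 and 1.52, and Spink1 far from it at −0.06 and 1.81.

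Many of the wild-type changes had the same sign in PRKO uteri. The 191 were chosen by their wild-type change, so a smaller PRKO change is no finding in itself. Over the 89 probe sets that rose, the median PRKO change was 0.128, 68 were positive, and 28 (31.5%) had all PRKO P4 arrays above the PRKO vehicle arrays, which 5.89% of all probe sets had. Over the 102 that fell, the median was −0.119, 81 (79.4%) were negative against 63.4% of all probe sets, and 22 (21.6%) had all P4 arrays below, against 16.4%. Acta1 gave 1157, 589.6 and 393 and 2689, 2093 and 1182 in PRKO uteri (1.49 ± 0.38), as large as in wild type (1.52 ± 0.38). Of the matrix and secretory-pathway genes called in wild type, Col1a1 (0.44 ± 0.14), Col3a1 (0.38 ± 0.16), Vcan (0.55 ± 0.15), Sparc (0.17 ± 0.13), Dpt (0.41 ± 0.17), Rcn1 (0.33 ± 0.11) and Kdelr3 (0.63 ± 0.18) had all PRKO P4 arrays above the vehicle arrays. Col1a2 (0.29 ± 0.14), Col5a2 (0.09 ± 0.10), Col6a2 (0.53 ± 0.19), Serpinh1 (0.12 ± 0.13) and Sec23b (−0.14 ± 0.18) overlapped in PRKO uteri. The enzyme genes Ptgr1 (0.51 ± 0.12) and Asl (0.47 ± 0.10) were also apart. None of these passed in PRKO uteri, and the difference between genotypes passed for Sec23b and for no other of them. The median of the matrix list was 0.0868 in PRKO and 0.213 in wild-type uteri, that of the epithelial junction list 0.0135 and −0.26, and that of the adipocyte list −0.184 and −0.761.

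The half-site that the progesterone, glucocorticoid and androgen receptors share was searched in the 250 bases before the RefSeq transcription starts (GRCm38.p6), as AGAACA or its reverse complement TGTTCT on the other strand. Matching by gene identifier found windows for 59 of the 75 genes that rose and 63 of the 86 that fell. The half-site stood in 9 of 82 windows (11%) of genes that rose and in 15 of 95 (15.8%) of genes that fell, against 1018 of 8408 windows (12.1%) of all tested genes and 16.1% of all 32851 windows in the table. The full palindrome, this half-site followed by any 3 bases and its reverse complement, stood in none of either set and in 1 window of the tested genes. Windows are shown for genes whose difference between genotypes passed with any 1 array left out, S100g, Acot7 and Acod1, each with 1 window. Spink1 also met this rule, but no window is shown for it, so the half-site near its start is not reported here. The windows are S100g at chrX:162964600-162964849 (minus strand), Acot7 at chr4:152185358-152185607 (plus strand) and Acod1 at chr14:103046762-103047011 (plus strand), in lower case, where half-sites would stand in capitals.
S100g: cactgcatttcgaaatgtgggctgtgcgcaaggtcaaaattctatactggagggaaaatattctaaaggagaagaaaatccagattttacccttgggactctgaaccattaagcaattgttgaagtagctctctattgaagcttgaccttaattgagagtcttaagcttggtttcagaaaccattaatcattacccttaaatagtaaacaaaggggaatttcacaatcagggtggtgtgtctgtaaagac
Acot7: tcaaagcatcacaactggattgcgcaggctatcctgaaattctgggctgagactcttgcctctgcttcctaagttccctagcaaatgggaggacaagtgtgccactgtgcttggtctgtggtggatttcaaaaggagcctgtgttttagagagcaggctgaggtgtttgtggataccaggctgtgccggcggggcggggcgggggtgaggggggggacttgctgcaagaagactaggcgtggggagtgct
Acod1: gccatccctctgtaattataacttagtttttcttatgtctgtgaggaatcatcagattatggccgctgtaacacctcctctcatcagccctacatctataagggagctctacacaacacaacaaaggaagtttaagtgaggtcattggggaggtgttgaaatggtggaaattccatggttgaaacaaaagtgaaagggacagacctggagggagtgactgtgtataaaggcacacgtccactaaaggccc
None of the 3 windows shown holds the half-site, which says only that these letters are not in these 250 bases of these genes. A match or its absence describes the letters and not binding.

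At 4 h after a single injection, on other wild-type arrays, limma called 88 probe sets (0.708%), 65 higher (0.523%) and 23 lower (0.185%). Of these 18 were also called at 40 h, which is 9.42% of the 191 and 20.5% of the 88. In the same direction stood 14, 8 higher and 6 lower. Acot7 (1.13 ± 0.17 at 4 h), Npl (1.08 ± 0.25), the adaptor gene Myd88 (0.82 ± 0.17), the chloride transporter gene Clcn5 (0.70 ± 0.12), Slc2a3 (0.53 ± 0.12) and the homeodomain-only gene Hopx (0.45 ± 0.09) were higher at both times. Gjb2 (−1.005 ± 0.17), Car2 (−0.97 ± 0.14), Tspan8 (−0.95 ± 0.17), the ephrin gene Efnb2 (−0.88 ± 0.12) and Prxl2a (−0.51 ± 0.11) were lower at both. At 40 h Myd88 gave 0.73 ± 0.17, Clcn5 0.71 ± 0.12, Hopx 0.56 ± 0.09, Efnb2 −0.62 ± 0.12 and Prxl2a −0.60 ± 0.11. Of these, Myd88 was the 1 called probe set of the 191 whose groups overlapped at 40 h. Myd88, Clcn5, Hopx, Efnb2, Prxl2a and, below, Parm1 were named after their values were seen. Replicate 2 of both 4 h groups had a Gapdh 3' to 5' ratio of 3.67 (vehicle) and 3.25 (P4), against 1.25 to 1.47 on the other 4 of these arrays, and its part in the 4 h values was not tested beyond the leave-outs given below. The actin ratio of replicate 2 was 1.42 (vehicle) and 1.30 (P4), within the 1.17 to 1.96 of the other 4.

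Opposite directions at the 2 times were called for S100g, Aldh1a1 and Parm1. S100g gave 433, 461 and 755 after vehicle and 287, 235 and 239 after P4 at 4 h (−0.99 ± 0.17), the reverse of its order at 40 h, with all P4 arrays below as in 3.01% of all probe sets (3.65% had all above), and its dimmer probe set did the same (−0.96). Aldh1a1 gave 923, 853 and 1229 and 1709, 1606 and 1478 at 4 h (0.67 ± 0.12), and fell at 40 h. Parm1, a mucin-like membrane protein gene, gave 0.49 ± 0.10 at 4 h and −0.61 ± 0.10 at 40 h. The test of the difference between times called 59 probe sets (0.475%), 27 higher (0.217%) and 32 lower (0.258%) at 40 h, and 33 of them were among the 191. It was 2.60 ± 0.23 for S100g, 1.95 ± 0.25 for Spink1, 1.36 ± 0.21 for Acod1, 1.09 ± 0.17 for Ptgr1, 1.06 ± 0.16 for D430019H16Rik, 1.05 ± 0.23 for Col3a1, 1.04 ± 0.20 for Col1a2 and 0.83 ± 0.15 for Rcn1. Negative differences were −1.84 ± 0.29 for Adamdec1, −1.71 ± 0.28 for Inmt, −1.44 ± 0.17 for Aldh1a1 and −1.38 ± 0.26 for Scd1.

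Part of the response at 4 h was not seen at 40 h. Cyp26a1, which breaks down retinoic acid, gave 120.1, 199 and 175 after vehicle and 137, 121 and 121 after 4 injections, which overlapped (−0.29 ± 0.16), against 3.02 ± 0.16 at 4 h and a difference of −3.31 ± 0.22. Cited2, a regulator of hypoxia-responsive transcription, gave −0.21 ± 0.15 at 40 h and 1.19 ± 0.15 at 4 h, a difference of −1.41 ± 0.21. Calb1 fell at 4 h (−1.45 ± 0.29) and gave 0.66 ± 0.29 at 40 h, a difference of 2.11 ± 0.42 that did not pass without 1 array in 2 cases (adjusted p of up to 0.0591). The count of 59 was 32, 36 and 38 without P4 replicate 2, vehicle replicate 1 and vehicle replicate 2 of 40 h, 90 without P4 replicate 3 of 4 h, 56 and 44 without vehicle and P4 replicates 2 of 4 h, and 26 when the fit held these 12 arrays alone.

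**Figure D5:**
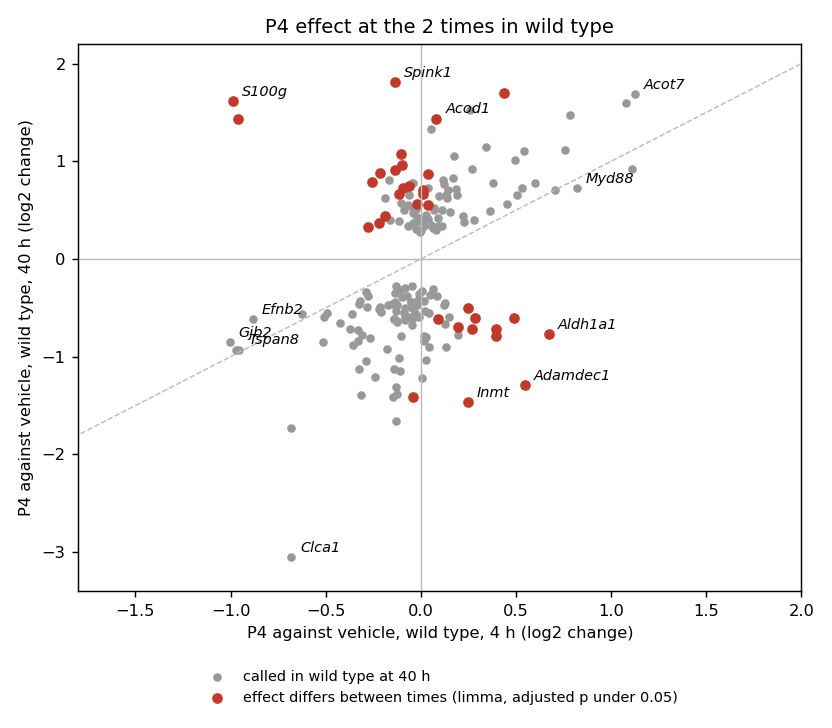
Log2 change after P4 in wild-type uteri at 4 h after 1 injection (horizontal) and at 40 h after 4 injections (vertical) for the 191 probe sets called at 40 h, each from 3 arrays against 3, red where the difference between times passed and with a dashed line of equal change. S100g lies at −0.99 and 1.61 and Acot7 at 1.13 and 1.68.

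The calls at 40 h depended on single arrays to different degrees. Leaving out P4 replicate 1, 2 or 3 gave counts of 110, 90 or 119 in place of 191. Leaving out vehicle replicate 2 or 3 gave 109 or 99, and leaving out vehicle replicate 1 gave 189, of which 131 were among the 191. Of the 50 genes with the 25 highest and 25 lowest changes, 31 passed whichever array was left out. The other 19 did not pass without at least 1, at adjusted p of up to 0.233: Acta1, Gstm2, Mme, Mdk, Kdelr3, Dpt and Col6a2 among the rises, and Lpl, Cidec, Cyp2e1, Lipe, Cebpb, Fasn, Gjb2, F3, Retn, Smpdl3a, Lpin1 and Cldn5 among the falls. Omitting vehicle replicate 1, 2 or 3 cost 10, 10 or 15 of these calls, and omitting P4 replicate 1, 2 or 3 cost 16, 17 or 9. Of the other genes named as called, Hoxa11, Crabp1, Vcan, Sparc, Cd74, H2-Eb1, Mmp11, Ephx1, Gpam, Myd88, Efnb2 and Prxl2a, and the dimmer probe set of Slc2a3 (up to 0.168) and one of Hoxa11os (up to 0.0716), were also lost without at least 1 array, at adjusted p of up to, in the order of the 12 genes, 0.079, 0.112, 0.137, 0.123, 0.247, 0.0876, 0.23, 0.145, 0.191, 0.163, 0.0689 and 0.0504. The respiratory-chain genes Cyc1, Ndufb6 and Ndufa3 were lost in the same way, at limma adjusted p of up to 0.153, 0.072 and 0.17. The 3' over 5' Gapdh control ratio, a reading of RNA quality, also followed treatment. It was 1.60, 1.48 and 1.497 after vehicle and 1.24, 1.24 and 1.30 after P4 in wild-type uteri. The actin ratio of the same arrays overlapped between groups. It was 1.1769, 1.4968 and 1.2939 after vehicle and 1.1869, 1.3002 and 1.353 after P4. The part of the Gapdh ratio in the results was not tested beyond a fit with it as a covariate. That fit called 369 probe sets, and all 50 genes passed in it.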

How the data were processed

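Per the labels, total RNA pooled from 5 mice per genotype and treatment was hybridised to Affymetrix mouse arrays. The deposited values are signal intensities on a linear scale, made with MAS5 per the submitters' processing notes, for 12488 probe sets, of which 66 are controls. Each array was scaled to a 2%-trimmed mean of 500, 32 was added, log2 was taken, and all 24 arrays (8 groups of 3) were fitted with group means in limma 3.58.1 (R 4.3.3) with an intensity trend. Tests were two-sided, and p values were adjusted over 12422 probe sets by the Benjamini-Hochberg method and called under 0.05. The steps were tested on simulated data. The offset compresses changes of dim genes.

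Of the probe sets 10833 name 1 gene, 396 several and 1193 none, and 8251 genes were measured. Lists use the brightest probe set of a gene. Named genes were the 25 highest and 25 lowest called changes with separate groups (1 probe set a gene), up to 4 called members of each list and any defining gene of it, Pgr, and the 5 highest and 5 lowest of each difference test. Alox12e and Pcmt1 were added after their values were seen. 1 gene that this rule names is not reported here. The members and lists were chosen with earlier results of these data known. Alternatives were the offset, scaling, filter, arrays in the fit, trend, replicate block, covariates, array weights and each array left out.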

Additional observations from a re-analysis of the deposited data

Results flagged for a closer look

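The P4 effect differed between wild-type and PRKO uteri at 40 h in limma's test of the difference, each from 3 arrays against 3 in each genotype. The difference, wild type minus PRKO on the log2 scale, was 1.87 for Spink1, 1.82 for S100g, 1.62 for Acot7, 1.56 for Acod1, 1.29 for Sec23b, 0.87 for Alox12e and 0.47 for Pcmt1. It was −0.86 for Cndp2, −0.62 for Tiam1 and −0.61 for Kcnq1. The adjusted p was 0.000748 for Spink1, S100g and Acod1, 0.00258 for Acot7, 0.00923 for Alox12e, 0.0379 for Cndp2, Tiam1 and Kcnq1, and 0.0491 for Sec23b and Pcmt1.

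The P4 effect in wild-type uteri differed between 40 h and 4 h by the same kind of test. The difference, 40 h minus 4 h, was 2.60 for S100g, 2.11 for Calb1, 1.95 for Spink1, 1.36 for Acod1, 1.09 for Ptgr1, 1.06 for D430019H16Rik, 1.05 for Col3a1, 1.04 for Col1a2 and 0.83 for Rcn1. It was −3.31 for Cyp26a1, −1.84 for Adamdec1, −1.71 for Inmt, −1.44 for Aldh1a1, −1.41 for Cited2 and −1.38 for Scd1. Adjusted p ran from 1.74e-08 for Cyp26a1 to 0.043 for Col3a1. Groups of 3 arrays were not tested for single outlying arrays.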

How the results depend on the processing

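The count of 191 probe sets at 40 h in wild-type uteri was 376 with a replicate block, 539 from the 12 arrays of 40 h alone, 369 with the Gapdh ratio as a covariate, 519 with array quality weights and 1 with the adipocyte level as a covariate, and 90 to 189 with 1 array left out. It was 183 to 225 under both other offsets, both other scalings, the filter on dim probe sets, the 6 arrays alone and no trend, and 176 to 190 of the 191 were shared, except with the 6 arrays alone (128 of 212). Without the further scaling the split was 81 higher and 108 lower, and with the 6 arrays alone 82 and 130. Under the adipocyte covariate the signs of Cidec (0.10), Lipe (0.28), Lpl (0.16) and Fasn (0.0085) reversed. Cidec and Lipe are themselves part of that covariate, and Lpl is through its other probe set, which did not reverse (−0.20). The genotype difference, 13 probe sets, gave 28 with the replicate block (13 higher, 15 lower) and 5 to 32 with 1 array left out, and it was 8 higher and 10 lower from the 12 arrays alone and 7 and 4 without further scaling. The time difference, 59 probe sets, gave 129 with the block, 26 from its 12 arrays alone, 55 without further scaling (17 higher, 38 lower), and 32 to 90 with 1 array left out. The count of 0 in PRKO uteri was 1 from the 6 arrays alone and 0 under the block and every other alternative run, each leave-out included. The causes were not tested. Of the 50 genes with the largest changes, Acta1 and Col6a2 did not pass without further scaling and Kdelr3, Fasn and Smpdl3a did not pass from the 6 arrays alone. Arrays with the same replicate number deviated together at correlations of 0.116, 0.142 and 0.0686 in wild-type and 0.481, 0.0668 and 0.451 in PRKO uteri at 40 h, which does not meet the rule for pairs, although each P4 array matched its own number best in both, a hint from the data and not the design. Averaging each gene's probe sets moved list medians by over 1.5 times for secretory products (−0.0288), cell cycle (0.00922), cholesterol (0.0406), class I (−0.0402), steroid receptors (0.00905), progesterone targets and epithelial junctions. The same held for decidualization-associated genes (−0.00335), uterine transcription factors (−0.00721), mesothelium, ovary or oviduct markers (−0.0336) and matrix proteases (0.00609). The medians of endothelial markers (0.0162 to −0.0166) and retinoid genes (0.00681 to −0.00998) changed sign. With 3 arrays a group, changes near the median SE of 0.102 could not be called, and dim probe sets are limited by background.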
